A study of Mus musculus with 12 samples.

Results

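Interferon-stimulated genes are genes whose transcription rises when a cell answers interferon, and 34 of them were followed through the differentiation of C2C12 cells, an established line of mouse muscle precursors. They were found on the array by the RefSeq accession of each probe, matched to the gene symbol, and no measured value entered that match. All 34 were present, on 41 of the 37246 probes used, among 19259 genes that could be named. RNA was taken from proliferating myoblasts in 10% fetal bovine serum and from cells kept for 2, 5 or 8 days in 2% horse serum, the usual trigger for fusion into myotubes. Each stage had 3 arrays, 12 in all, described as independent experiments. The labels name no interferon, virus, transgene or other agent in any group. They do not say whether the 3 cultures of a stage were grown separately, so the p-values here cover only how these arrays vary, which may be technical. One line of cells grown in a dish holds no immune or vascular tissue, which limits it as a model of muscle in an animal.

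Interferons bind receptors whose Janus kinases phosphorylate STAT proteins. Under type I interferon, STAT2 and IRF9 take part in a complex that binds the interferon-stimulated response element (ISRE), and under interferon gamma, STAT dimers bind the gamma-activated site (GAS). The genes so induced block steps of viral replication, sense viral nucleic acids and feed back on the pathway. In skeletal muscle the programme is best known from inflammatory myopathies, dermatomyositis above all, and from viral infection.

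Signals were read in 1 colour. A level is the log2 of a probe's processed signal relative to the 75th percentile of its array, so 0 marks that percentile and levels compare 1 probe across arrays, not different probes. The 75th percentiles ran from 1294.7 to 1993.4 scanner units, and 56.9% to 69.5% of spots passed the scanner software's test for lying well above background. The lowest signal passing that test was 31.06 and 24.96 units on proliferation arrays 1 and 2 and 6.1 to 14.1 on the other arrays. A gene was tested where a probe passed on all 3 arrays of at least 1 stage, and called where its adjusted p was under 0.05 in limma, with adjustment over all 22960 probes tested. Changes are log2 differences ± the standard error of the fit, with n = 3 arrays a stage. Slide 1 held the proliferation arrays and day 2 array 1, slide 2 held day 2 arrays 2 and 3 and day 5 arrays 1 and 2, and slide 3 held the rest. No slide held proliferation with day 5 or day 8. Those comparisons can be set against the slide only through a fit with slide as a block, called the slide-blocked fit. In it, every change against proliferation passes through day 2 array 1, the only later array on slide 1. Changes to day 8 also pass through day 5 array 3, the only day 5 array on slide 3. Whether such calls are kept or lost therefore depends on these single arrays. An adjusted p in brackets after a lost call is that of the named setting. Of 5 muscle markers, 3 rose and 1 fell at day 2, and 5 rose and 0 fell at day 5. At day 8, 3 rose and 0 fell. Among all tested probes 18.3% rose and 12.2% fell at day 2, 23.7% and 23.8% at day 5, and 25.4% and 29.4% at day 8. Myog, the myogenic factor of differentiation, rose by 2.82 ± 0.24 at day 2 and 7.53 ± 0.24 at day 5. Myh3, embryonic myosin, rose by 3.40 ± 0.21 and 8.38 ± 0.21 at these stages.

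The RefSeq promoter table of GRCm38.p6 held 28 of the 34 members, as windows of 250 bases before and 50 after an annotated start. The ISRE was searched as GAAA, any 2 bases and GAAA again, and the GAS as TTC, any 3 bases and GAA, each on both strands. ISRE letters stood in the windows of 12 of 28 members (42.9%), against 1079 of 27025 genes (3.99%), or 3.44% of all windows of that length. They were found for Bst2, Eif2ak2, Gbp2, Gbp3, Ifih1, Ifit1, Ifit3, Ifitm3, Isg15, Oas1a, Rsad2 and Stat2. GAS letters stood in 9 of 28 (32.1%), against 9.55% of genes and 8.3% of windows, and overlapped ISRE letters in Bst2 and Ifitm3. A match describes these letters alone and is no evidence of binding. Below are the 250 bases before the start of 5 members that carry ISRE letters and behaved differently: Isg15, Ifit3 and Gbp2 rose at every stage, Ifit1 was called at day 8, and Rsad2 was measured well at day 2 alone. They are written 5′ to 3′ on the gene's strand, from chr4:156200819-156201068 (minus strand) for Isg15, chr19:34583279-34583528 (plus) for Ifit3, chr19:34640639-34640888 (plus) for Ifit1, chr3:142620413-142620662 (plus) for Gbp2 and chr12:26456453-26456702 (minus) for Rsad2. Capitals mark ISRE letters on either strand.
Isg15: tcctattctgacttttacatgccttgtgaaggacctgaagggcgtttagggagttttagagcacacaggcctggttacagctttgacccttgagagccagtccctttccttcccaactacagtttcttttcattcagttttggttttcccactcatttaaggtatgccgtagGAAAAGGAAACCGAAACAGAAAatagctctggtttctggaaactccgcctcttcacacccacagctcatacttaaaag
Ifit3: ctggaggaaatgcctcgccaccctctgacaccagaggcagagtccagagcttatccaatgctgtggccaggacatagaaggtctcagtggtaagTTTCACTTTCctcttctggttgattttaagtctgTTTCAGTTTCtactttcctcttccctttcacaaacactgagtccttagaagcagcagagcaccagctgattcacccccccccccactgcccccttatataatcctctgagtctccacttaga
Ifit1: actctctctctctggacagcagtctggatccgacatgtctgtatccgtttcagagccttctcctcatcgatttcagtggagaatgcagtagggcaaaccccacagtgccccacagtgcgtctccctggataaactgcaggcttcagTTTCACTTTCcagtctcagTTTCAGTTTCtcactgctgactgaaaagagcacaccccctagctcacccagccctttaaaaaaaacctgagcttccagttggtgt
Gbp2: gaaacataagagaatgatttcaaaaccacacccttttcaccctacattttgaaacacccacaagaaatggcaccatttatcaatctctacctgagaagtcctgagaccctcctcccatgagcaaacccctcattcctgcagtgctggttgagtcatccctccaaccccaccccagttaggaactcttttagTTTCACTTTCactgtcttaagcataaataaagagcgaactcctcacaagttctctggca
Rsad2: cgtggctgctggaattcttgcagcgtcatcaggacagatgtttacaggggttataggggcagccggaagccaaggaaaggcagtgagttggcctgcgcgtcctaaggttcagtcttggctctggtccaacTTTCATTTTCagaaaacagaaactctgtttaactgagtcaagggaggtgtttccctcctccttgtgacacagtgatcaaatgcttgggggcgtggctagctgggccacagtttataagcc
The Isg15 promoter held 3 overlapping matches that start 78, 72 and 66 bases before the start site. The neighbouring genes Ifit3 and Ifit1 held 2 matches each, at 156 and 122 bases and at 104 and 85 bases before their starts. Gbp2 and Rsad2 held 1 each, at 59 and 120 bases.

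**Figure D1:**
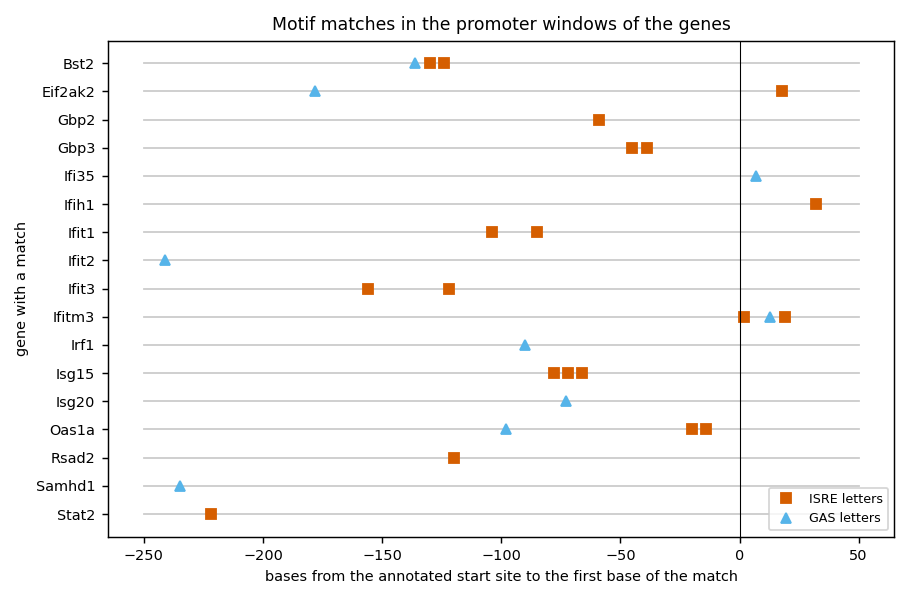
Position of ISRE letters (squares) and GAS letters (triangles) in the promoter windows of the 17 members that hold either, in bases from the annotated start site to the first base of the match. Upstream ISRE matches lie between 222 bases (Stat2) and 14 bases (Oas1a) before the start, and those of Eif2ak2, Ifih1 and Ifitm3 lie after it.

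At day 2, 16 of 28 tested members rose and 0 fell. Among all tested probes, 18.3% rose and 12.2% fell (30.6% called in either direction). The median change of the 28 was 0.81, against 0.07 over all tested probes. Among the 16 were Gbp2 (2.04 ± 0.23), a guanylate-binding GTPase, Ifitm1 (1.77 ± 0.17), a membrane protein that hinders viral entry, and Irf7 (1.71 ± 0.13), a transcription factor of interferon genes. At an unadjusted p under 0.05, 20 members were higher and 1 lower in limma. The share of all probes at that unadjusted threshold is not given here, so these counts cannot be set against a background. In the slide-blocked fit 13 members were higher and 0 lower, 12 of them among the 16, where 9.56% of all probes were higher and 5.76% lower. A fit within slide 1, the only one that holds both stages, has 1 day 2 array and gives these same counts, so it is no separate check. A fit of only the probes well above background on all 12 arrays leaves out genes below background at some stage. In it 12 of 22 members rose and 0 fell, where 20.4% of those probes rose and 14.6% fell. In these bulk samples, fewer cells that express a gene and less RNA per cell cannot be told apart.

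At day 5, 13 of 28 members were higher than in proliferation and 4 lower, where 23.7% of all tested probes were higher and 23.8% lower (47.5% in either direction). The median change was 0.62, against -0.02 over all probes. At day 8, 16 were higher and 3 lower, where 25.4% of probes were higher and 29.4% lower (54.8% in either direction), with medians of 0.74 and -0.11. The 4 lower members at day 5 were Stat2, Ifit2, Samhd1 and Rsad2, and the 3 at day 8 were Samhd1, Ifitm1 and Ifi35. The 3 comparisons share their proliferation arrays, so they are not independent of each other. In the fit of only the probes well above background on all 12 arrays, 11 of 22 members were higher and 4 lower at day 5. Of the probes in that fit, 24.8% were higher and 26.4% lower. At day 8 it gave 12 higher and 3 lower of 22, beside 26.2% and 31.2%. The slide-blocked fit gave 8 higher and 2 lower at day 5, where 12.4% and 10.3% of all probes were so called. At day 8 it gave 7 higher and 0 lower, against 9.7% and 7.6% of all probes. The 7 were Dtx3l, Gbp2, Ifih1, Ifit3, Irf7, Isg15 and Lgals3bp, all called without the block as well. The day 8 split was 17 higher and 1 lower with normexp background correction, where 30.9% of all probes were higher and 19.9% lower. With non-uniform spots left out and the percentile taken from the spots kept, 14 were higher and 0 lower of the 19 that could be tested at day 5, beside 26.4% and 3.31% of all probes. At day 8 it was again 14 and 0, of 18, beside 21.3% and 5.5%.

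Between stages fewer members moved. From day 2 to day 5, 3 rose and 5 fell, where 14.3% of probes rose and 15.7% fell (30.1% in either direction), with a median change of -0.14 against -0.09. The rises were those of Ifit3, Mx2 and Rtp4, and the falls those of Ifitm1, Rsad2, Stat2, Gbp3 and Ifit2. Rsad2 passed the filter for testing through day 2 alone, so its fall is no independent result. From day 5 to day 8, 6 rose and 0 fell, where 5.88% of probes rose and 6.72% fell (12.6% in either direction), and the median was 0.19 against -0.08. These 6 were Ifit1, Ifit2, Ifit3, Ifih1, Parp9 and Stat2. At an unadjusted p under 0.05 in limma, 9 members were higher and 2 lower at that step, again without a share of all probes to set beside them. In the slide-blocked fit, 2 rose and 5 fell from day 2 to day 5, where 10.6% and 11.5% of all probes did. From day 5 to day 8 it called 0 of 28, where it called 1.91% of all probes higher and 1.33% lower; only slide 3 holds both stages, with 1 day 5 array. From day 2 to day 5, normexp gave 1 rise and 3 falls, beside 10.1% and 11.7% of all probes. Leaving out non-uniform spots, with the percentile from the spots kept, gave 2 and 2 of 18, beside 5.98% and 3.9%. The 5 falls became 3 without day 2 array 3, day 5 array 1 or day 5 array 2, and the 6 later rises became 2 without day 5 array 1 and 3 without day 8 array 3. Without day 5 array 1, 13.1% of all probes fell and 2.56% rose at these steps. Across the 4 stages, the F test called 23 of 28 members, where it called 65.8% of all probes, and 16 in the slide-blocked fit, beside 31.4% of all probes.

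**Figure D2:**
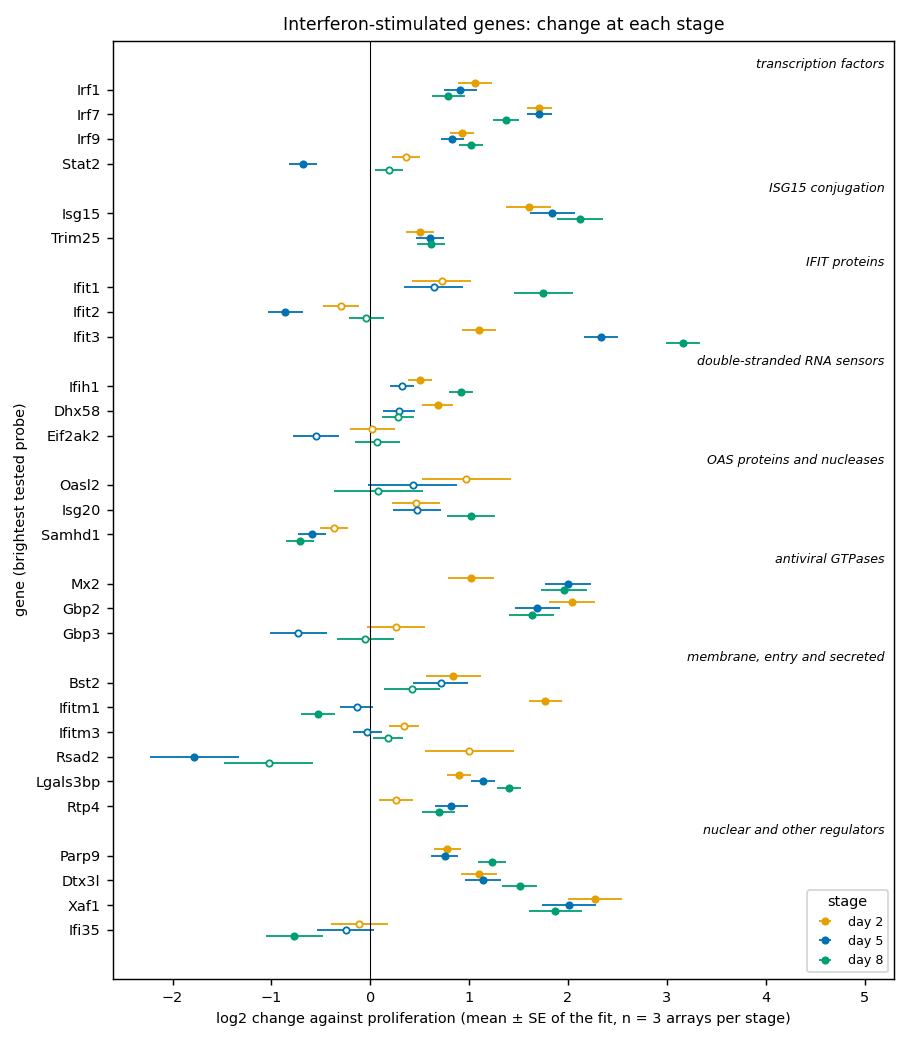
Log2 change against proliferation (x axis, mean ± standard error of the fit, n = 3 arrays a stage) of the 28 tested members, by role, at day 2, day 5 and day 8. Filled points had an adjusted p under 0.05; Ifit3 moves from 1.1 to 3.16 between day 2 and day 8, whereas Ifitm1 stands at 1.77 at day 2 and at -0.53 at day 8.

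Of the 4 transcription factors, Irf1, Irf7 and Irf9 rose at all 3 later stages and Stat2 fell at day 5. Irf7 drives the second wave of type I interferon genes. Its levels were -2.58, -2.37 and -2.55 on the proliferation arrays, -0.86, -0.68 and -0.81 at day 2, -0.87, -0.58 and -0.93 at day 5 and -1.07, -1.21 and -1.10 at day 8. All 9 later arrays lay above the 3 of proliferation, and the day 8 arrays lay below those of day 5. The rise was 3.28-fold at day 2 (1.71 ± 0.13, adjusted p = 2.23e-05), 3.26-fold at day 5 (1.71 ± 0.13, adjusted p = 1.77e-06) and 2.59-fold at day 8 (1.37 ± 0.13, adjusted p = 7.54e-06). These calls held in the slide-blocked fit, at adjusted p = 0.0138 or lower. The step from day 5 to day 8 was not called (-0.34 ± 0.13, adjusted p = 0.118).

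Irf9, the DNA-binding partner of STAT2, had levels of -1.68, -1.62 and -1.66 in proliferation, -0.64, -0.72 and -0.82 at day 2, -0.80, -1.0 and -0.66 at day 5 and -0.70, -0.53 and -0.68 at day 8. The later arrays again lay apart from proliferation and overlapped among themselves. The rise was 1.90-fold at day 2 (0.93 ± 0.12, adjusted p = 0.000422), 1.78-fold at day 5 (0.83 ± 0.12, adjusted p = 0.000232) and 2.02-fold at day 8 (1.02 ± 0.12, adjusted p = 4.69e-05). The other Irf9 probes, which match the same gene, were called at these stages as well, with changes of 0.67 to 1.02. The day 8 call was lost in the slide-blocked fit (adjusted p = 0.062; 2.09e-05 to 0.062 across its settings).

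Irf1, an early target of interferon gamma, had levels of 1.35, 1.79 and 1.83 in proliferation, 2.75, 2.68 and 2.71 at day 2, 2.38, 2.82 and 2.51 at day 5 and 2.31, 2.43 and 2.61 at day 8. Its day 2 arrays lay within a narrow range above all proliferation arrays. The changes were 1.06 ± 0.17 (adjusted p = 0.00116), 0.91 ± 0.17 (adjusted p = 0.00102) and 0.79 ± 0.17 (adjusted p = 0.0022). A second probe changed alike (0.90, 0.79 and 0.64), and the remaining one was well above background on 1 array and not tested. The slide-blocked fit lost the calls at day 5 (adjusted p = 0.0643; 0.00023 to 0.0643 across its settings) and day 8 (adjusted p = 0.172; 0.00065 to 0.172). The day 5 call was also lost without non-uniform spots when the percentile came from all spots (adjusted p = 0.0571).

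Stat2, the STAT peculiar to type I and type III signalling, moved differently from the IRF genes. Its levels were 2.47, 2.29 and 2.49 in proliferation, 2.81, 2.99 and 2.53 at day 2, 1.81, 1.60 and 1.78 at day 5 and 2.64, 2.67 and 2.49 at day 8. The 3 day 5 arrays were the lowest of the 12, and 2 of them shared a slide with day 2 arrays and the other with day 8. Stat2 fell 2.07-fold from day 2 to day 5 (-1.05 ± 0.14, adjusted p = 0.000244; -1.06 in the slide-blocked fit, adjusted p = 0.0038). It then rose 1.83-fold to day 8 (0.87 ± 0.14, adjusted p = 0.00475; adjusted p = 0.084 in the slide-blocked fit, 0.003 to 0.084 across its settings). Against proliferation it was lower at day 5 (-0.68 ± 0.14, adjusted p = 0.00239; adjusted p = 0.141 in the slide-blocked fit, 0.00127 to 0.141 across its settings). At day 2 (0.36) and day 8 (0.19) it was not called, though the day 2 change was called higher in 2 of 22 settings.

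**Figure D3:**
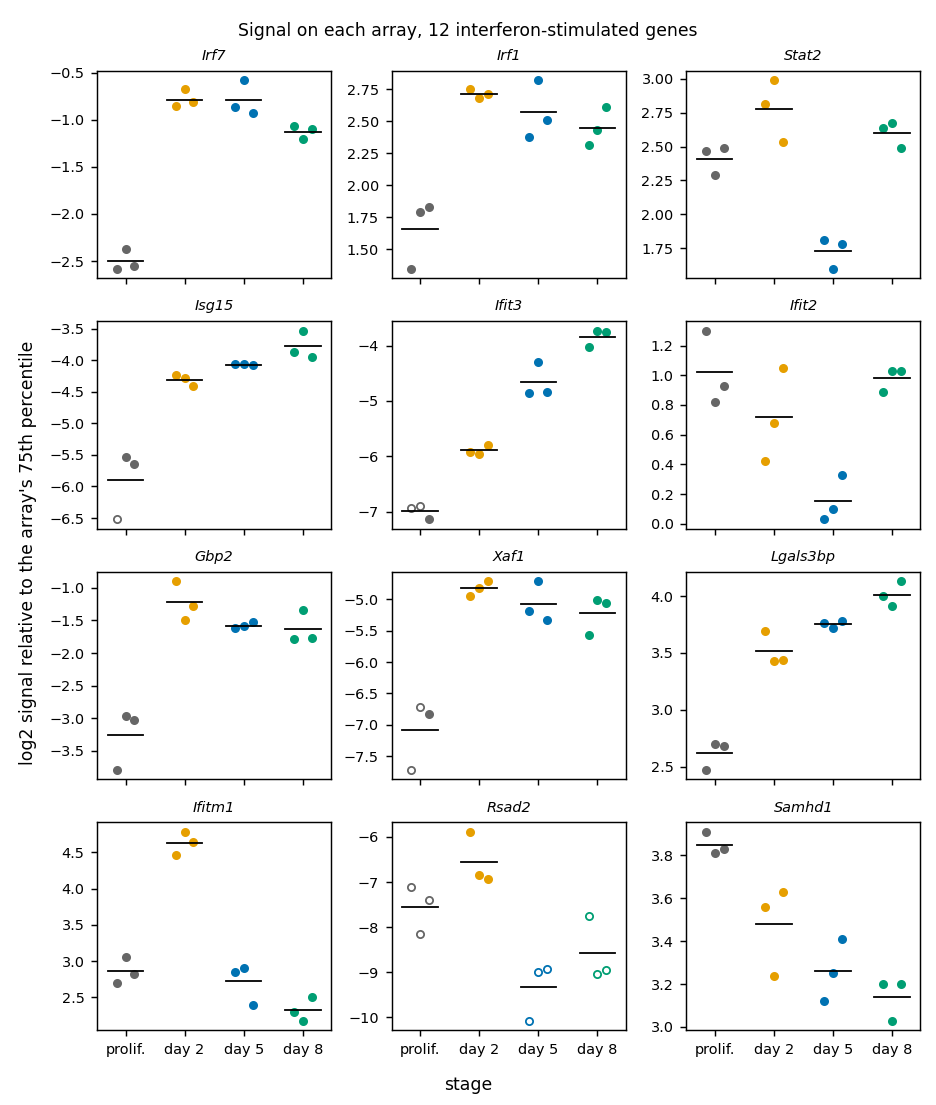
Level on each of the 12 arrays for 12 members (y axis, log2 signal relative to the 75th percentile of the array), by stage; bars are stage means and open points were not well above background. Irf7, Lgals3bp and Gbp2 separate proliferation from every later array, Stat2 and Ifit2 dip at day 5, and Ifitm1 peaks at day 2.

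Isg15 is a ubiquitin-like protein that is attached to other proteins during the interferon response. Its levels were -6.52, -5.54 and -5.64 in proliferation, -4.23, -4.28 and -4.40 at day 2, -4.06, -4.06 and -4.08 at day 5 and -3.87, -3.53 and -3.94 at day 8. Each stage lay above the one before without overlap, and proliferation array 1 was not well above background. Isg15 was therefore tested only because later stages passed the filter, so its calls against proliferation are not independent of that selection. Isg15 rose 3.02-fold at day 2 (1.60 ± 0.23, adjusted p = 0.000675), 3.57-fold at day 5 (1.84 ± 0.23, adjusted p = 6.75e-05) and 4.35-fold at day 8 (2.12 ± 0.23, adjusted p = 1.98e-05), all called in the slide-blocked fit. With low signals set to a floor, the lowest signal well above background on the same array, the changes were 1.42, 1.66 and 1.95, all called. The Isg15 steps of 0.24 from day 2 to day 5 and 0.28 from day 5 to day 8 were not called. Its promoter is the one above with 3 overlapping ISRE matches.

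Trim25, a ubiquitin ligase that activates the RNA sensor RIG-I and also conjugates ISG15 in human cells, rose less. Its levels ran from 2.1 to 2.18 in proliferation and from 2.50 to 2.85 on the 9 later arrays. The changes were 0.50 ± 0.14 (adjusted p = 0.0178), 0.60 ± 0.14 (adjusted p = 0.00381) and 0.61 ± 0.14 (adjusted p = 0.00307) at day 2, 5 and 8. None of the 3 was called in the slide-blocked fit (adjusted p = 0.199, 0.24 and 0.338, the highest across their settings, whose lowest values were 0.00518, 0.00196 and 0.00193). The day 2 call was also lost without day 2 array 2 (adjusted p = 0.0668) and with no filter on dim probes (0.0538). Usp18, the protease that removes ISG15, was well above background on 3 of 12 arrays and was not tested.

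The 3 IFIT genes, whose products bind viral RNA and block its translation, parted ways. Each was read by 1 probe, and whether a probe also bound RNA of a related gene could not be checked. Ifit3 had levels of -6.94, -6.90 and -7.14 in proliferation, -5.92, -5.96 and -5.79 at day 2, -4.85, -4.30 and -4.84 at day 5 and -4.03, -3.73 and -3.76 at day 8. The stages did not overlap, and each later stage was higher than the one before. Ifit3 was tested only because later stages passed the filter, so its calls against proliferation are not independent of that selection. Only proliferation array 3 was well above background, so the folds rest on a baseline near it: 2.15-fold at day 2 (1.1 ± 0.17, adjusted p = 0.000948), 5.03-fold at day 5 (2.33 ± 0.17, adjusted p = 1.14e-06) and 8.91-fold at day 8 (3.16 ± 0.17, adjusted p = 9.33e-08). With low signals set to a floor, the lowest signal well above background on the same array, the changes were 0.53 at day 2, 1.76 at day 5 and 2.59 at day 8. The day 2 call was lost with the floor (adjusted p = 0.162; 0.00032 to 0.162 across its settings), and the others held with the floor and in the slide-blocked fit. The step from day 2 to day 5 was 1.23 ± 0.17 (adjusted p = 0.000249). The step from day 5 to day 8 was 0.82 ± 0.17 (adjusted p = 0.0122; 0.00627 to 0.271 across its settings). That last call was lost in the slide-blocked fit (0.0639), with the floor (0.0692), without non-uniform spots and with the percentile from the spots kept (0.271), and without array 1 (0.0565) of day 5. No Ifit3 spot was marked non-uniform, so leaving such spots out changed only the scaling and the fit.

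Ifit1 was called later than Ifit3, its neighbour on chromosome 19. Its levels were -5.98, -4.83 and -5.75 in proliferation, -4.90, -4.98 and -4.51 at day 2, -5.01, -4.51 and -5.12 at day 5 and -3.95, -4.0 and -3.37 at day 8. The day 8 arrays lay above all others, while proliferation array 2 lay among the arrays of day 2 and day 5. Ifit1 rose 3.36-fold at day 8 (1.75 ± 0.30, adjusted p = 0.000595), a call lost in the slide-blocked fit (1.95, adjusted p = 0.109; 8.97e-05 to 0.109 across its settings). The changes of 0.72 at day 2 and 0.64 at day 5 were not called, and without proliferation array 2 both were (1.07, adjusted p = 0.0162, and 0.98, adjusted p = 0.0115). They were called higher in 3 of 24 and 4 of 23 settings. From day 5 to day 8 Ifit1 rose 2.16-fold (1.11 ± 0.30, adjusted p = 0.0378; 0.0172 to 0.194 across its settings). This call was lost without array 2 (0.0501) of day 2, 1 (0.119) or 3 (0.0795) of day 5 or 1 (0.0745), 2 (0.0622) or 3 (0.121) of day 8. It was also lost in the slide-blocked fit (0.142) and with no filter on dim probes (0.0895). With non-uniform spots left out and the percentile from the spots kept it was lost too (0.194). No Ifit1 spot was marked non-uniform, so that setting changed only the scaling and the fit.

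Ifit2, like Stat2, had its lowest levels at day 5. They were 1.30, 0.82 and 0.93 in proliferation, 0.42, 0.68 and 1.05 at day 2, 0.03, 0.10 and 0.33 at day 5 and 0.89, 1.03 and 1.03 at day 8. All day 5 arrays lay below those of every other stage. Ifit2 was 1.82-fold lower at day 5 than in proliferation (-0.86 ± 0.18, adjusted p = 0.00265; -1.39 in the slide-blocked fit, adjusted p = 0.0113). The fall from day 2 to day 5 (-0.56 ± 0.18, adjusted p = 0.039; 0.019 to 0.144 across its settings) was lost without array 2 (0.0754) or 3 (0.144) of day 2, 1 (0.12) or 2 (0.095) of day 5 or 1 (0.052), 2 (0.0503) or 3 (0.0533) of day 8. It was lost as well with normexp (0.0641), with a percentile taken over the probes that all arrays measured above background (0.0505) and with no filter (0.0944), but was called in the slide-blocked fit (-0.80, adjusted p = 0.0202). The return at day 8 (0.83 ± 0.18 over day 5, adjusted p = 0.0175; 0.0124 to 0.169 across its settings) was lost in the slide-blocked fit (0.169) and with no filter (0.0525). It was also lost without array 1 (0.0722) or 2 (0.053) of day 5 or 2 (0.0504) or 3 (0.0563) of day 8.

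Of the 3 sensors of double-stranded RNA, Ifih1 rose at day 2 and day 8, Dhx58 at day 2, and Eif2ak2 was not called. Ifih1 encodes MDA5, which detects long viral RNA. Its levels were -1.88, -2.03 and -2.22 in proliferation, -1.42, -1.61 and -1.58 at day 2, -1.68, -1.69 and -1.81 at day 5 and -1.15, -1.14 and -1.08 at day 8. The day 8 arrays were the highest and close together, and all later arrays lay above those of proliferation. Ifih1 rose by 0.50 ± 0.12 at day 2 (adjusted p = 0.0111) and by 0.92 ± 0.12 at day 8 (adjusted p = 9.62e-05), calls held in the slide-blocked fit. Its day 5 change of 0.32 was not called (adjusted p = 0.0538), but was called higher in 4 of 23 settings. The step from day 5 to day 8 (0.60 ± 0.12, adjusted p = 0.0121) was lost in the slide-blocked fit (adjusted p = 0.0791; 0.00854 to 0.88 across its settings) and on leaving out non-uniform spots (0.88 when the percentile came from the spots kept, 0.0958 when it came from all).

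Dhx58 encodes LGP2, a relative of MDA5 that tunes its signalling. Its levels were -2.6, -3.08 and -2.71 in proliferation and -1.97, -2.33 and -2.06 at day 2, and they ran from -2.68 to -2.38 at day 5 and day 8, overlapping with proliferation. Dhx58 rose 1.60-fold at day 2 (0.68 ± 0.16, adjusted p = 0.0111). The call was lost with normexp (0.0528), in the slide-blocked fit (0.0519) and on leaving out non-uniform spots (0.0608 when the percentile came from the spots kept, 0.0875 when it came from all), over a range of 0.00391 to 0.0875. Eif2ak2 encodes the kinase PKR, which halts translation on binding double-stranded RNA. Its changes were 0.02, -0.55 and 0.07 at day 2, 5 and 8, and the day 5 change had an adjusted p of 0.0693. That change was called lower in 5 of 23 settings, among them the slide-blocked fit (-1.13, adjusted p = 0.0353) and normexp (-0.51, adjusted p = 0.0365).

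Among OAS proteins and nucleases, Isg20 rose at day 8, Samhd1 fell at day 5 and day 8, and Oasl2 was not called. Isg20, an exonuclease that degrades viral RNA, had levels of -0.19, -0.57 and -0.17 in proliferation, 0.07, -0.24 and 0.60 at day 2, 0.23, -0.04 and 0.28 at day 5 and 0.41, 1.08 and 0.64 at day 8. The day 8 arrays lay above those of proliferation and day 5. Isg20 rose 2.03-fold (1.02 ± 0.24, adjusted p = 0.00394), a call lost in the slide-blocked fit (0.73, adjusted p = 0.458; 0.00021 to 0.458 across its settings). Its second probe was higher at day 8 too (1.40, adjusted p = 5.91e-05), and was called at day 2 (0.63, adjusted p = 0.0197) and from day 5 to day 8 (1.02, adjusted p = 0.00589), where the first was not.

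Samhd1, which depletes the nucleotide pool that reverse transcription needs, had levels of 3.91, 3.81 and 3.83 in proliferation, 3.56, 3.24 and 3.63 at day 2, 3.12, 3.25 and 3.41 at day 5 and 3.20, 3.03 and 3.20 at day 8. No later array reached the levels of proliferation. It fell by 0.59 ± 0.14 at day 5 (adjusted p = 0.00453) and by 0.71 ± 0.14 at day 8 (adjusted p = 0.00128), calls lost in the slide-blocked fit (adjusted p = 0.176 and 0.132, the highest across their settings, whose lowest were 0.00175 and 0.000843). Its second probe fell as well (-0.46 and -0.56), but at day 2 the probes had opposite signs (-0.37 and 0.25) with neither called. The day 2 fall of the first probe was called in 3 of 22 settings. Oasl2, an OAS-like protein, had levels of -6.54 to -5.24 in proliferation and -4.10, -5.45 and -5.56 at day 2, so 1 day 2 array stood apart. Its day 2 change of 0.97 ± 0.45 had an adjusted p of 0.125 in limma. That change was called with normexp (0.66, adjusted p = 0.041) and with non-uniform spots left out and the percentile from the spots kept (1.59, adjusted p = 0.0142). The slide-blocked change of 1.91 rests on that 1 day 2 array, the only one on the slide of proliferation, so it is no separate check.

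Among the antiviral GTPases, Gbp2 and Mx2 rose and Gbp3 fell between day 2 and day 5. Gbp2 coats and disrupts membranes of intracellular pathogens. Its levels were -3.79, -2.97 and -3.03 in proliferation, -0.90, -1.49 and -1.28 at day 2, -1.61, -1.59 and -1.52 at day 5 and -1.78, -1.34 and -1.77 at day 8. All later arrays lay more than 1 log2 unit above proliferation, and the highest array was of day 2. Gbp2 rose 4.11-fold at day 2 (2.04 ± 0.23, adjusted p = 0.000181), 3.22-fold at day 5 (1.69 ± 0.23, adjusted p = 0.000147) and 3.10-fold at day 8 (1.63 ± 0.23, adjusted p = 0.000163), all called in the slide-blocked fit. Its spot was marked non-uniform on 11 of 12 arrays, so leaving such spots out could not check these calls. Gbp3, of the same family, was not called against proliferation, where its day 5 change was -0.73 (adjusted p = 0.0574). That change was called lower in 6 of 23 settings, among them normexp (-0.96, adjusted p = 0.00718), and ran up to 0.43. Gbp3 fell from day 2 to day 5 (-0.98 ± 0.29, adjusted p = 0.0239; 0.012 to 0.661 across its settings; -1.18 in the slide-blocked fit, adjusted p = 0.0322). That call was lost without array 1 (0.0632) or 3 (0.0941) of day 2 or 1 (0.0549) or 2 (0.0867) of day 5, with no filter (0.057) and on leaving out non-uniform spots (0.661 when the percentile came from the spots kept, 0.529 when it came from all).

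Mx2 belongs to the dynamin-like GTPases that trap viral particles, and its RefSeq record on the array is marked as a transcribed pseudogene. Its levels were -7.00, -6.94 and -7.08 in proliferation, -6.37, -5.68 and -5.89 at day 2, -5.16, -4.99 and -4.86 at day 5 and -4.65, -4.94 and -5.54 at day 8. The stages did not overlap up to day 5, and 1 of 3 proliferation arrays and 2 of 3 day 2 arrays were well above background. Mx2 thus passed the filter for testing through day 5 and day 8 alone, so its calls are not independent of that selection. Mx2 rose by 1.02 ± 0.23 at day 2 (adjusted p = 0.00814), 2.00 ± 0.23 at day 5 (adjusted p = 4.09e-05) and 1.96 ± 0.23 at day 8 (adjusted p = 4.1e-05), and by 0.98 ± 0.23 from day 2 to day 5 (adjusted p = 0.00843). In the slide-blocked fit the day 5 call held (1.34, adjusted p = 0.0395) and the others did not (0.181 at day 2, 0.153 at day 8 and 0.0859 for the step). With the floor on low signals the changes were 0.42, 1.4 and 1.36 at day 2, 5 and 8, and the day 2 call was lost (0.33), as was the step with normexp (0.449). The adjusted p ran from 0.00138 to 0.33 at day 2, 3.18e-06 to 0.153 at day 8 and 0.0031 to 0.449 for the step across the settings.

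Of the 6 members whose products act at membranes, in viral entry or outside the cell, Lgals3bp rose at all 3 stages, Ifitm1 and Bst2 at day 2, and Rtp4 at day 5 and day 8. Lgals3bp is a secreted glycoprotein that binds galectins. Its levels were 2.47, 2.70 and 2.68 in proliferation, 3.69, 3.43 and 3.44 at day 2, 3.76, 3.72 and 3.78 at day 5 and 4.0, 3.91 and 4.13 at day 8. Each stage lay above the one before without overlap. Lgals3bp rose 1.87-fold (0.90 ± 0.12, adjusted p = 0.00055), 2.2-fold (1.14 ± 0.12, adjusted p = 2.69e-05) and 2.63-fold (1.40 ± 0.12, adjusted p = 4.62e-06), all called in the slide-blocked fit. The single steps after day 2 were not called.

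Ifitm1 had levels of 2.70, 3.06 and 2.82 in proliferation, 4.46, 4.78 and 4.64 at day 2, 2.85, 2.91 and 2.39 at day 5 and 2.30, 2.18 and 2.50 at day 8. The 3 day 2 arrays stood alone above all others, on both slides that held them. Ifitm1 rose 3.40-fold at day 2 (1.77 ± 0.17, adjusted p = 7.78e-05) and fell 3.76-fold from day 2 to day 5 (-1.91 ± 0.17, adjusted p = 1.33e-05), with slide-blocked values of 1.59 and -1.83, both called. Its second probe changed by 1.81 and -1.92. At day 8 it was lower than in proliferation (-0.53 ± 0.17, adjusted p = 0.0237; 0.0121 to 0.81 across its settings). That call was lost without array 2 (0.0909) of proliferation or 1 (0.0614) or 2 (0.0768) of day 8, with normexp (0.072), with no filter (0.0534) and in the slide-blocked fit (0.618). It turned to 0.12 (adjusted p = 0.81) with non-uniform spots left out and the percentile from the spots kept. In that setting the median change of all probes at day 8 was 0.52. No spot of the first Ifitm1 probe was marked in proliferation or at day 8. Ifitm3, its paralogue that guards the endosome, was bright on all arrays, with levels of 6.15 to 6.79, and was not called, its changes being 0.34, -0.03 and 0.18.

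Rtp4, a receptor transporter protein that binds viral RNA, had levels of -2.52, -2.63 and -2.49 in proliferation, -2.63, -2.04 and -2.19 at day 2, -1.60, -1.60 and -2.0 at day 5 and -1.81, -1.98 and -1.77 at day 8. The arrays of day 5 and day 8 lay above all those of proliferation. It rose by 0.82 ± 0.17 at day 5 (adjusted p = 0.00266) and 0.69 ± 0.17 at day 8 (adjusted p = 0.00602), calls lost in the slide-blocked fit (adjusted p = 0.222 and 0.221, the highest across their settings, whose lowest were 0.000796 and 0.00207). The rise from day 2 to day 5 (0.56 ± 0.17, adjusted p = 0.0325; 0.0181 to 0.173 across its settings) was called in the slide-blocked fit (adjusted p = 0.0388). It was lost without array 1 (0.115) or 3 (0.0546) of day 2 or 1 (0.108) or 2 (0.0976) of day 5, with normexp (0.173) and with no filter (0.0816). With non-uniform spots left out and the percentile from the spots kept it was lost too (0.165). No Rtp4 spot was marked non-uniform, so that setting changed only the scaling and the fit.

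Bst2, also called tetherin because it holds budding virus at the cell surface, had levels of -1.37, -1.08 and -0.74 in proliferation and -0.06, -0.48 and -0.13 at day 2. These arrays did not overlap, whereas those of day 5 (-0.98 to 0.11) and day 8 (-0.95 to -0.31) overlapped with proliferation. The day 2 rise (0.84 ± 0.28, adjusted p = 0.046; 0.018 to 0.15 across its settings) was lost without array 1 (0.15) or 2 (0.1) of proliferation, 1 (0.119), 2 (0.056) or 3 (0.112) of day 2, 1 (0.0583) of day 5 or 1 (0.0506) or 3 (0.0613) of day 8. It was also lost with normexp (0.0778), with a percentile taken over the probes that all arrays measured above background (0.07), with no filter (0.0985) and in the slide-blocked fit (0.0992).

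Among nuclear and other regulators, Dtx3l, Parp9 and Xaf1 rose at each later stage. Dtx3l and Parp9 form 1 complex, a ubiquitin ligase with an ADP-ribosyltransferase, and share a divergent promoter. Dtx3l had levels of 0.17, 0.08 and -0.11 in proliferation, 0.90, 1.47 and 1.06 at day 2, 1.12, 1.45 and 0.98 at day 5 and 1.57, 1.47 and 1.63 at day 8. Parp9 had levels of -0.14, -0.16 and -0.17 in proliferation, 0.69, 0.63 and 0.54 at day 2, 0.53, 0.44 and 0.81 at day 5 and 1.27, 0.91 and 1.05 at day 8. In both genes day 8 lay above day 5 and all later arrays lay above proliferation. Dtx3l rose by 1.1 ± 0.18 (adjusted p = 0.00129), 1.14 ± 0.18 (adjusted p = 0.000329) and 1.51 ± 0.18 (adjusted p = 3.55e-05). Parp9 rose by 0.78 ± 0.14 (adjusted p = 0.00217), 0.75 ± 0.14 (adjusted p = 0.00103) and 1.23 ± 0.14 (adjusted p = 2.48e-05). In the slide-blocked fit the day 5 calls of both (0.0695 for Dtx3l, 8.15e-05 to 0.0695 across its settings, and 0.0606 for Parp9, 0.000538 to 0.0606) and the day 8 call of Parp9 (0.0542, 1.25e-05 to 0.0542) were lost. The Parp9 step from day 5 to day 8 (0.48 ± 0.14, adjusted p = 0.0435; 0.0219 to 0.452 across its settings) was lost in the slide-blocked fit (0.452) and with no filter (0.113). It was lost without array 2 (0.0647) or 3 (0.0555) of proliferation, 1 (0.0528), 2 (0.0584) or 3 (0.0566) of day 2, 1 (0.139) or 2 (0.128) of day 5 or 1 (0.142) or 3 (0.097) of day 8.

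Xaf1, a proapoptotic zinc finger protein which counters the caspase inhibitor XIAP, had levels of -7.72, -6.72 and -6.83 in proliferation, -4.94, -4.81 and -4.71 at day 2, -5.18, -4.71 and -5.33 at day 5 and -5.57, -5.01 and -5.06 at day 8. Proliferation stood apart, on a baseline where 1 of 3 arrays was well above background. Xaf1 was tested only because later stages passed the filter, so its calls against proliferation are not independent of that selection. Xaf1 rose 4.81-fold at day 2 (2.27 ± 0.27, adjusted p = 0.000227), 4.04-fold at day 5 (2.01 ± 0.27, adjusted p = 0.000119) and 3.66-fold at day 8 (1.87 ± 0.27, adjusted p = 0.000175). With low signals set to the floor these changes were 1.5, 1.25 and 1.11, all called. The day 8 call was lost in the slide-blocked fit (2.08, adjusted p = 0.0594; 3.66e-05 to 0.0594 across its settings). Ifi35, a leucine zipper protein, went the other way at day 8 (-0.77 ± 0.29, adjusted p = 0.045; 0.00339 to 0.318 across its settings), with day 8 levels of -2.21, -1.37 and -2.03 that overlapped those of proliferation (-1.79, -0.79 and -0.72). This call was lost without array 2 (0.145) or 3 (0.154) of proliferation, 1 (0.0542), 2 (0.0584) or 3 (0.058) of day 2, 1 (0.0574), 2 (0.0511) or 3 (0.0509) of day 5 or 1 (0.151) or 3 (0.121) of day 8. It was also lost with normexp (0.0627), quantile normalization (0.0695), no filter (0.083) and the slide-blocked fit (0.318).

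Rsad2 encodes viperin, an enzyme that makes a chain-terminating nucleotide. Its processed signals at day 2 were 24.39, 13.66 and 12.56 units, each well above background, and on the 9 other arrays they were not, at 14.33 units or less. The lowest signal classed as well above background on proliferation arrays 1 and 2 exceeded all 3 day 2 signals, so the proliferation values are bounds. Rsad2 was at least 1.86-fold higher at day 2 than at day 5 (adjusted p = 0.000795, with 0.000327 to 0.171 across its settings). It was tested only because its day 2 arrays passed the filter, so this p-value is drawn from the values that selected the gene. The call was lost with normexp (0.171) and with the floor (0.161), and was kept in the slide-blocked fit (adjusted p = 0.00515). Against proliferation the bound for day 2 was under 1, so no fold is given, and the change was not called (adjusted p = 0.118). It was called higher with normexp (0.52, adjusted p = 0.0218) and with non-uniform spots left out and the percentile from the spots kept (1.61, adjusted p = 0.0107). With the floor it was -0.05 (adjusted p = 0.945). The fit also called Rsad2 lower at day 5 than in proliferation (adjusted p = 0.00755), but no array of either stage was well above background, so no fold is given. Under normexp that difference had the opposite sign (0.19, adjusted p = 0.323), and the call was lost with the floor (0.104) and in the slide-blocked fit (0.406; 0.00432 to 0.406 across its settings). It was lost too with non-uniform spots left out and the percentile from the spots kept (0.0731). No Rsad2 spot was marked non-uniform, so that setting changed only the scaling and the fit. The day 8 difference from proliferation was not called (-1.03, adjusted p = 0.0747), again with no array above background in either stage. It was called with the opposite sign under normexp (0.47, adjusted p = 0.0235), and as lower when array 2 of proliferation (-1.33, adjusted p = 0.0441) or array 1 of day 8 (-1.44, adjusted p = 0.0211) was left out; the adjusted p ran from 0.0211 to 0.71 across its settings.

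A total of 6 members passed no test for lack of signal. Ifi44 and Oas1a were well above background on 0 of 12 arrays, with signals of at most 12.4 and 6.2 units. Oasl1 was so on 2 arrays, both of day 2, Usp18 on 3 and Sp100 on 4. Mx1 was well above background on proliferation array 1 (33.2 units) and on day 2 array 1 (324.4 units), where the spot was marked as non-uniform, and read 5.5 units or less on the other 10 arrays. The day 2 replicates were at 1.5 and 1.8 units, so the high value belongs to 1 array. Oas1a is an oligoadenylate synthetase that activates RNase L, and Mx1 a dynamin-like GTPase whose record is also marked as a transcribed pseudogene.

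**Figure D4:**
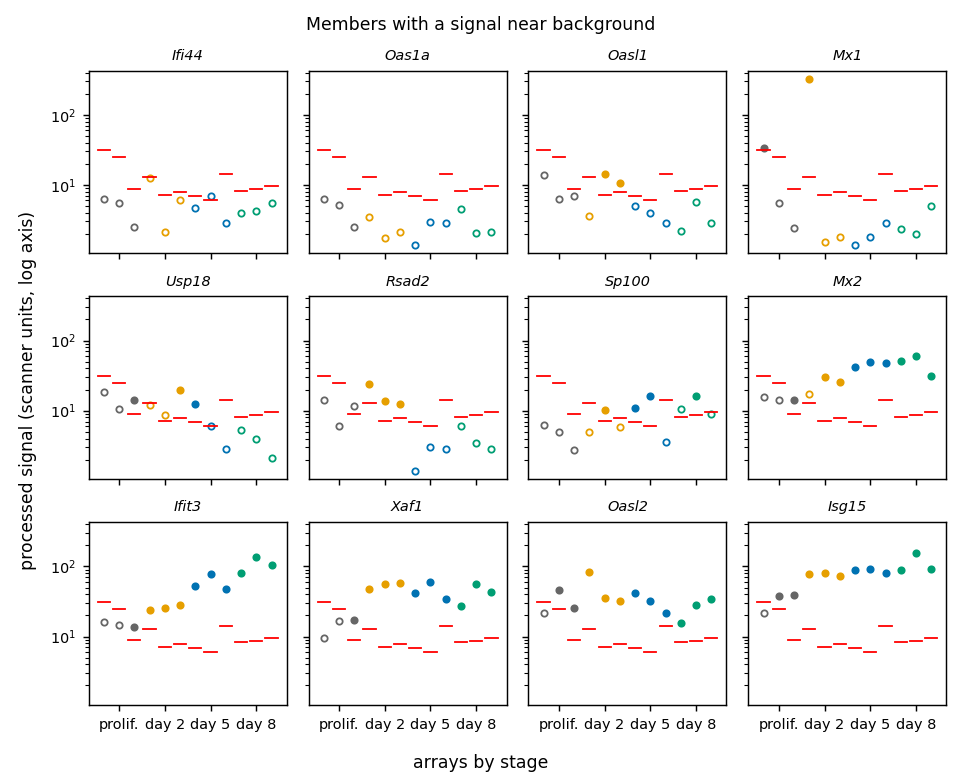
Processed signal (y axis, scanner units, log axis) on each of the 12 arrays, by stage, of the 12 members that were not well above background on every array. Filled points were well above background and red bars give the lowest signal so classed on that array; Rsad2 is filled at day 2 alone, and Mx1 reads 324.4 units on 1 day 2 array.

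The tested members were also counted by the presence of ISRE letters in the promoter window. Of 11 tested members with the letters, 5 rose at day 2, and of 13 with a window but no such letters, 8 rose. At day 8 these counts were 5 and 8 higher and 0 and 3 lower, and at day 5 they were 3 and 7 higher and 2 and 2 lower. Among all tested probes 18.3% were higher and 12.2% lower at day 2, 23.7% and 23.8% at day 5, and 25.4% and 29.4% at day 8. The 4 tested members without a window in the table were Dhx58, Mx2, Parp9 and Rtp4. The difference between the classes was not tested.

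Other genes of the pathway were read beside the members. Of 19 interferon genes on the array, 6 could be tested. Ifnb1, interferon beta, was well above background on 0 of 12 arrays, with signals of 1.4 to 6.2 units. Ifng, interferon gamma, had levels of -6.28, -6.15 and -6.16 in proliferation, -4.70, -5.01 and -4.65 at day 2, -2.47, -2.1 and -2.74 at day 5 and -2.47, -2.76 and -2.41 at day 8. Its arrays rose stage by stage to day 5 and then overlapped, from a baseline where 1 of 3 arrays was well above background. Ifng was therefore tested only because later stages passed the filter. The changes were 1.41 ± 0.18, 3.76 ± 0.18 and 3.65 ± 0.18 (adjusted p = 0.000311, 5.39e-08 and 5.04e-08). Ifna5 and Ifna1, of the alpha family, were lower at day 8 (-1.87, adjusted p = 0.00255, and -0.99, adjusted p = 0.0333). With normexp both changed sign (0.11, adjusted p = 0.538, and 0.26, adjusted p = 0.192), and both were lost in the slide-blocked fit (0.165 and 0.816; 0.000338 to 0.538 and 0.00416 to 0.816 across their settings). The Ifna1 call was lost without array 1 (0.104) or 2 (0.0616) of proliferation or 1 (0.115) or 2 (0.0653) of day 8, with quantile normalization (0.328), with no filter (0.0634) and without non-uniform spots (0.556).

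Of 9 tested receptors, kinases and STATs, 3 rose at day 2, 4 rose and 1 fell at day 5, and 4 rose at day 8. Among all tested probes 18.3% rose and 12.2% fell at day 2, 23.7% and 23.8% at day 5, and 25.4% and 29.4% at day 8. The 4 at day 8 were Stat3 (1.46 ± 0.20, adjusted p = 0.000107), a STAT of interleukin 6 family cytokines, the interferon gamma receptor chains Ifngr2 (0.87 ± 0.19, adjusted p = 0.00262) and Ifngr1 (0.72 ± 0.14, adjusted p = 0.00151), and the type I receptor chain Ifnar1 (0.83 ± 0.14, adjusted p = 0.000501). The calls of Ifngr2 (0.369; 0.00106 to 0.369 across its settings), Ifngr1 (0.244; 0.00106 to 0.244) and Ifnar1 (0.095; 0.000126 to 0.095) were lost in the slide-blocked fit.

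Of 15 tested sensors and adaptors upstream of interferon, 4 rose and 4 fell at day 8, beside 25.4% and 29.4% of all probes. Zbp1, a sensor of Z-form nucleic acid, had levels of -7.30, -6.10 and -6.02 in proliferation, -3.79, -3.69 and -3.28 at day 2, -1.22, -1.94 and -1.75 at day 5 and -1.91, -1.84 and -1.06 at day 8. It rose by 2.88 ± 0.36, 4.83 ± 0.36 and 4.87 ± 0.36 (adjusted p = 0.00029, 1.41e-06 and 1.03e-06), with 1 of 3 proliferation arrays well above background. Zbp1 was therefore tested only because later stages passed the filter. Ddx58, which encodes RIG-I, rose by 1.44 ± 0.16 at day 8 (adjusted p = 3e-05). Cgas, the sensor of cytosolic DNA, fell by 1.80 ± 0.15 (adjusted p = 2.4e-06), and Tlr4, the endotoxin receptor, by 1.73 ± 0.21 (adjusted p = 4.91e-05; 0.0622 in the slide-blocked fit, 2.2e-05 to 0.0622 across its settings).

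Of 10 genes that restrain the pathway, 3 rose and 3 fell at day 8, beside the same 25.4% and 29.4%. The cytokine signalling suppressor Socs3 rose by 1.09 ± 0.13 (adjusted p = 4.37e-05; 0.137 in the slide-blocked fit, 1.65e-05 to 0.137 across its settings). Its relative Socs1, the stronger brake on interferon receptors, fell by 1.04 ± 0.11 (adjusted p = 1.75e-05), and Cish fell by 0.79 ± 0.15 (adjusted p = 0.0012). Adar, which edits double-stranded RNA so that MDA5 ignores it, fell by 1.15 ± 0.33 (adjusted p = 0.0124). The calls of Cish (0.238) and Adar (0.414) were lost in the slide-blocked fit, and Cish turned to 0.04 (adjusted p = 0.942) with non-uniform spots left out and the percentile from the spots kept. The median change of all probes at day 8 was 0.52 in that setting. Adjusted p ran from 0.000677 to 0.942 for Cish and from 0.00218 to 0.414 for Adar across their settings.

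Among 40 tested genes of a further interferon-induced list, 18 rose and 4 fell at day 2, 19 rose and 6 fell at day 5 and 18 rose and 4 fell at day 8, with medians of 0.54, 0.54 and 0.43. The medians of all tested probes were 0.07, -0.02 and -0.11, and 18.3%, 23.7% and 25.4% of them rose while 12.2%, 23.8% and 29.4% fell. The largest rise at day 8 was that of Ifi27l2a, a small membrane protein gene (4.12 ± 0.18, adjusted p = 1.99e-08). Slfn5 (2.97 ± 0.41, adjusted p = 0.000128), Trim30a (2.85 ± 0.35, adjusted p = 5.28e-05) and the immunity-related GTPase gene Irgm2 (2.48 ± 0.16, adjusted p = 3.28e-07) followed, and all 4 were called in the slide-blocked fit. Slfn5 and Trim30a were well above background on 1 of 3 proliferation arrays, so later stages alone admitted them to the test.

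**Figure D5:**
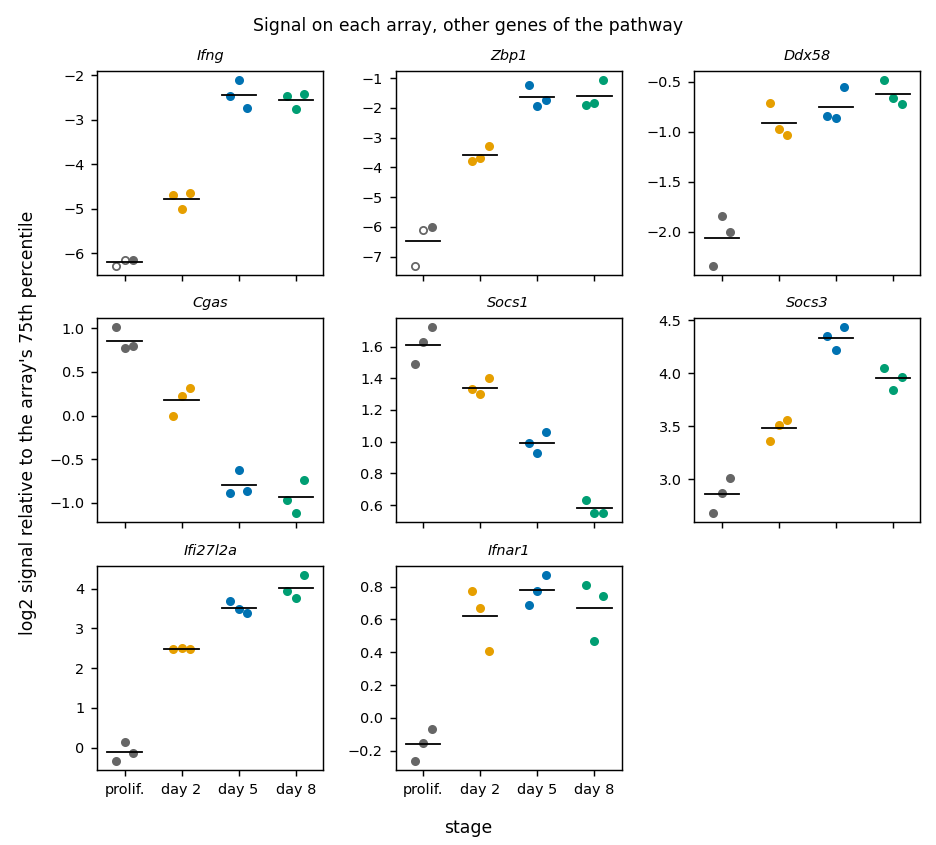
Level on each of the 12 arrays for 8 other genes of the pathway (y axis, log2 signal relative to the 75th percentile of the array), by stage; bars are stage means and open points were not well above background. Ifng, Zbp1 and Ifi27l2a climb from proliferation to day 5, whereas Cgas and Socs1 decline.

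Markers of macrophages and endothelial cells were set beside these genes. Of 8 macrophage markers on the array, Adgre1 and Itgam were well above background on 0 of 12 arrays and 5 could be tested. Of these, 2 rose and 0 fell at day 2, while 2 rose and 3 fell at day 5 and again at day 8. Among all tested probes 18.3% rose and 12.2% fell at day 2, 23.7% and 23.8% at day 5, and 25.4% and 29.4% at day 8. At day 8 Aif1 (1.56 ± 0.28, adjusted p = 0.00089) and Csf1r (1.29 ± 0.17, adjusted p = 7.88e-05; 0.0758 in the slide-blocked fit, 3.1e-05 to 0.0758 across its settings) were higher. Cd14 fell by 1.05 ± 0.19 (adjusted p = 0.000742), and Tyrobp was at least 5.51-fold lower (adjusted p = 0.000731), a call lost in the slide-blocked fit (0.367) and with normexp (0.348; 0.000692 to 0.367 across its settings). The summed signal of the 8 markers, relative to the 75th percentile, was 1.43 to 1.71 in proliferation, 1.24 to 1.64 at day 2, 0.898 to 1.22 at day 5 and 0.857 to 0.986 at day 8. The sum adds different probes, of which Cd14 was the brightest, and the part of these markers in the members' changes was not tested. Of 4 endothelial markers, Tek rose (1.98 ± 0.17, adjusted p = 3.79e-06) and Kdr and Cdh5 fell (-3.18 ± 0.26, adjusted p = 2.27e-06, and -2.17 ± 0.37, adjusted p = 0.000546) at day 8. Cdh5 was lost in the slide-blocked fit (0.168) and with normexp (0.293; 8.88e-05 to 0.293 across its settings). The summed endothelial signal was 0.213 to 0.294 in proliferation and 0.783 to 1.07, 0.678 to 0.874 and 0.48 to 0.619 at day 2, 5 and 8, and its part in the members' changes was not tested.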

How the data were processed

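Total RNA of 12 C2C12 samples, 3 for each of 4 stages, was labelled with Cy3. It was hybridised to a custom Agilent array whose grid names build mm9, per the file headers. Spot intensity in the deposited files came from the scanner software Feature Extraction; its version is 10.5.1.1 according to the submitters' processing notes. The processed intensity was corrected for background and detrended within each array by that software, per the file headers, and no scaling between arrays is recorded there. Control spots were left out, spots of 1 probe were averaged, and log2 values were set to each array's 75th percentile. A probe with several spots counted as well above background on an array where at least 0.5 of them did. Genes were named by RefSeq accession through the GRCm38.p6 table, and the brightest tested probe stood for a gene. Probe sequences were not available. Binding of a probe to RNA of a relative within the IFIT, IFITM, GBP, MX and OAS families could therefore not be checked. limma 3.58.1 (R 4.3.3) fitted the 4 stage means over all tested probes, with Benjamini-Hochberg adjustment, and was tested on simulated data. The precision is limited by 3 arrays a stage.

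All members were named: those called in any of 5 comparisons with values, the others with ranges. From each other list at most 4 called genes with the largest change at day 8 were named, with Ifnb1 always. One gene of the list of receptors, kinases and STATs is not reported here. The members and lists were chosen with earlier results of these data known. Alternatives were background correction, normalization, the filter on dim probes, a floor, spots marked non-uniform, slide and replicate number as blocks, the median over probes, and leaving out each array. The normexp alternative (offset 50) was planned on mean signals. The files used hold median signals, so it used median spot and background intensity as deposited. Leaving out non-uniform spots removes 19.8% to 28.3% of spots an array, so 16 to 19 members could then be tested, depending on the comparison. The spots of Bst2, Ifit2, Parp9, Samhd1 and Stat2 were marked on 12 of 12 arrays and those of Gbp2, Ifi35 and Ifitm3 on 11. Ranges across the settings of these genes therefore leave this alternative out. The same held for Dtx3l and Isg20 at day 2, Isg20 at day 5, and Gbp3 and Irf9 at day 8. Some settings moved the median change of all probes by more than 0.1. At day 2, 5 and 8 it was 0.07, -0.02 and -0.11 as reported, 0.21, 0.13 and 0.15 with normexp, 0.74, 0.81 and 0.52 with non-uniform spots left out and the percentile from the spots kept, and -0.12, -0.32 and -0.52 with no filter.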

Additional observations from a re-analysis of the deposited data

How the results depend on the processing

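Of 66 member calls over the 5 comparisons, 65 were kept with quantile normalization, 64 with the percentile of probes that every array measured above background, 61 with low signals set to a floor, 57 with normexp, 56 with no filter on dim probes and 35 with the slide as a block. The cause of these losses was not tested, apart from the filter, which changes the number of probes tested. Counts that moved most were those of the slide block: 8 higher and 2 lower at day 5, 7 higher and 0 lower at day 8, and 0 higher from day 5 to day 8. In the same order, 12.4%, 10.3%, 9.7%, 7.6% and 1.91% of all probes were so called. With normexp, 1 member was lower at day 2 and 1 at day 8, and 1 rose and 3 fell from day 2 to day 5. In the same order, 9.46%, 19.9%, 10.1% and 11.7% of all probes were so called. The member lower at day 2 was Samhd1, as it was with quantile normalization (1 lower) and with that percentile (1 lower). Of all probes, 13.8% and 15.1% were lower at day 2 in these settings. With non-uniform spots left out and the percentile from the spots kept, 0 were lower at day 5 and at day 8, 2 fell from day 2 to day 5, 0 rose from day 5 to day 8, and 14 changed across the 4 stages. Beside these stood 3.31%, 5.5%, 3.9%, 0.488% and 34.2% of all probes. With the percentile from all spots the member counts were 1, 1, 2, 2 and 13, beside 11.6%, 15.9%, 8.41%, 3.05% and 34.9% of all probes. With no filter, 3 of 34 fell from day 2 to day 5 and 3 rose from day 5 to day 8, beside 7.83% and 1.6% of all probes. With probes above background on all 12 arrays only, 1 of 22 rose from day 2 to day 5, beside 14.9% of those probes.

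With single arrays left out, 3 to 5 members fell from day 2 to day 5 and 2 to 6 rose from day 5 to day 8. The lowest counts came without day 2 array 3 or day 5 array 1 or 2 (3 falls each) and without day 5 array 1 (2 rises) or day 8 array 3 (3 rises). Without day 5 array 1, 13.1% of all probes fell from day 2 to day 5 and 2.56% rose from day 5 to day 8. The other counts stayed within 1.5 times: 14 to 16 and 0 at day 2, 13 to 14 and 4 to 5 at day 5, and 16 and 2 to 3 at day 8. Called changes that turned sign were those of Rsad2 at day 5 (0.19) and, at day 8, Ifna5 (0.11) and Ifna1 (0.26) with normexp, and Ifitm1 (0.12) and Cish (0.04) with non-uniform spots left out and the percentile from the spots kept. Those 0.12 and 0.04 lie below the median change of all probes at day 8 in that setting, 0.52. Rsad2 at day 8, not called as reported, was called with the opposite sign (0.47) under normexp.

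The stages share replicate numbers. Deviations of same-numbered arrays from their stage means correlated at -0.16 to 0.24 (mean 0.02, 18 pairs), those of differently numbered arrays at -0.26 to 0.22 (mean -0.01), so the numbers were not taken as pairs. With the replicate block 62 of 66 calls were kept. The 4 lost were Bst2 at day 2 (adjusted p = 0.0506), Ifit2 (0.0513) and Rtp4 (0.0566) from day 2 to day 5 and Parp9 (0.0615) from day 5 to day 8.

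Signal over background limits 12 members: 6 were not tested, and Ifit3, Xaf1, Mx2, Isg15, Oasl2 and Rsad2 had proliferation arrays near background. The latter 6 passed the filter for testing only through later stages, and Rsad2 through day 2 alone. Background was higher on proliferation arrays 1 and 2 than on the others. The slide is nearly confounded with stage.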

Other observations

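Cmpk2, a mitochondrial nucleotide kinase and itself interferon-induced, was singled out after its values were seen, because it lies next to Rsad2 in the mouse genome. Its probe was well above background on 2 of 3 proliferation arrays and all 3 day 2 arrays and on 0 of 6 arrays of day 5 and day 8, so it was lost from view after day 2 as Rsad2 was. It was at least 1.78-fold higher at day 2 than at day 5 and at least 1.53-fold higher in proliferation than at day 8. No p-value is given, because these same values led to its choice and it passed the filter for testing through day 2 alone.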
